A study of Mus musculus with 2 samples.

Results

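The most periportal hepatocyte spots of 1 AEG-1-WT and 1 AEG-1-C75S mouse liver section were described here, chosen by the measured UMIs of Cyp2f2 and Cyp2e1. For every spot with at most 50000 unique molecular identifiers (UMIs, counted RNA molecules), R was taken as the log2 ratio of Cyp2f2 to Cyp2e1 UMIs after adding 1 to each, and the members were the 20% of spots with the highest R within their section. This gave 462 of 2309 spots in the AEG-1-WT section and 433 of 2163 in the AEG-1-C75S section, together 895 of 4472 kept spots, after 7 and 4 spots above the UMI limit had been left out. RNA was counted on fixed liver with the 10x Visium assay, in which pairs of probes bound side by side on a transcript are joined and counted on barcoded spots. Both mice were naïve, untreated 8-week-old female littermates, and the same lobe was sectioned. AEG-1 is encoded by Mtdh, and in AEG-1-C75S mice the cysteine at position 75, to which palmitate is attached, was changed to serine by CRISPR/Cas9 knock-in in all cells of the body and not in hepatocytes alone. AEG-1-WT carries the unchanged gene. With 1 animal of each genotype, spots are not replicates, no test between the genotypes was made, and every interval below covers counting error only.

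Blood enters the liver lobule through the portal triad and leaves it by the central vein, and hepatocytes divide their work along that path. Periportal hepatocytes receive the most oxygen and nutrients and are known for glucose production, the urea cycle, amino acid breakdown and the making of plasma proteins, while pericentral hepatocytes, under Wnt signals from the central vein, are known for drug metabolism, bile acid synthesis and the capture of ammonia. A Visium spot covers several cells, so a periportal spot can also hold bile duct, portal connective tissue, sinusoidal cells and blood. The pericentral marker Glul was not analysed here.

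Since Cyp2f2 and Cyp2e1 chose the spots, their values only describe the choice. The members had a median R of 0.13 in the AEG-1-WT section and 0.12 in the AEG-1-C75S section, against -3.12 and -2.67 in the remaining spots. At the border, the last member in the AEG-1-WT section had an R of -0.624 (23 UMIs of Cyp2f2 and 36 of Cyp2e1) and the first spot outside had -0.630 (41 and 64 UMIs). In AEG-1-C75S both of those spots had an R of -0.592 (72 and 109 UMIs inside, 66 and 100 outside), and 76 and 85 spots of the sections lay within 0.1 of the border. R had no gap there in either section, so the members are the end of a continuous range and not a separate class. The members held 7956584 UMIs in the AEG-1-WT section, with a median of 15860.5 in a spot, and 8026839 in the AEG-1-C75S section, with a median of 17810, while the remaining spots had medians of 17163 and 19235.5. The sections shared 1896 spot barcodes, since the slide areas under both sections carry the same printed barcodes, and 72 of these were members in both.

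**Figure D1:**
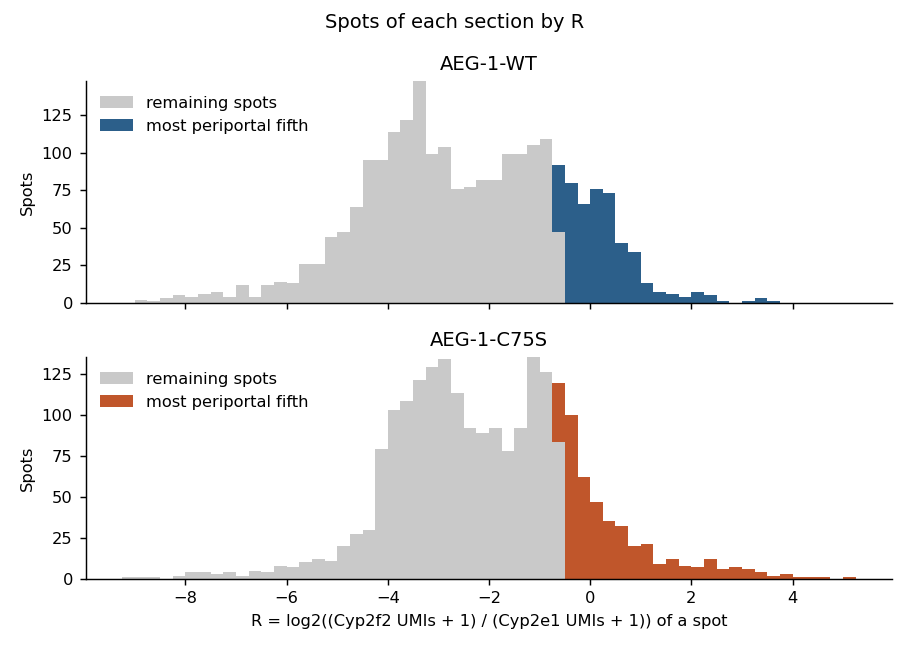
The bars count the spots of each section in steps of R, with the log2 ratio of Cyp2f2 to Cyp2e1 UMIs on the horizontal axis, and the coloured bars are the most periportal 20%. The members lie at the right end of a continuous range, from -0.624 upwards in the AEG-1-WT section and from -0.592 upwards in the AEG-1-C75S section.

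The spots were periportal by markers that the choice did not use. UMIs were summed over the members and over the remaining spots of a section and divided by the total UMIs of those spots, and the share is given per 1000000 UMIs (CPM). Hal, which begins histidine breakdown, stood at 363 CPM in the members and 174 in the remaining spots of AEG-1-WT, and at 319.8 and 152 in the AEG-1-C75S section. The log2 ratio of members to remaining spots was 1.07 in both sections (95% exact binomial intervals 1.002 to 1.13 and 1.002 to 1.14). For Sds, the serine dehydratase, the ratio was 1.34 in the AEG-1-WT section (95% interval 1.26 to 1.43), and AEG-1-C75S had 1.42 (1.31 to 1.53). Gls2, the liver glutaminase, had 0.89 and 0.99, and Hsd17b13, a lipid droplet enzyme, had 0.95 in both. All 4 markers were thus higher in the members of each section. Against the adjacent rank group alone, the next 20% of spots by R, the log2 ratio of Hal was 0.42 and 0.48. With each spot thinned to 3000 UMIs, a UMI of Hal was seen in 67.0% of 461 AEG-1-WT members and 39.3% of 1844 remaining spots, and in 60.2% of 432 and 34.4% of 1728 in the AEG-1-C75S section. Before thinning these shares were 99.1%, 87.1%, 97.5% and 84.4%.

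Of 11059 genes with at least 50 UMIs in each section, 155 (1.4%) were higher in the members by a log2 ratio of at least 0.5 in both sections and 280 (2.53%) were lower by as much, together 435 (3.93%). A gene could reach the minimum through the spots in which it was high, so the numbers of listed genes below are descriptions. In the AEG-1-WT section alone 328 (2.97%) were higher and 713 (6.45%) lower, and in the AEG-1-C75S section 297 (2.69%) and 607 (5.49%). After centring on the median gene, which lay at -0.09 in the AEG-1-WT section and -0.05 in the AEG-1-C75S section, the numbers were 187 and 221. Against the adjacent rank group alone, 20 of 9840 genes (0.203%) were higher and 68 (0.691%) were lower. Among the genes that were higher, 55 of the 155 went up at every step across the 5 rank groups in both sections. Among those that were lower, 108 of the 280 went down at every step. The members, the last rank group, had chosen these genes, and such steps were not counted over all genes. The numbers of steps are thus a description only.

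Several enzymes and 1 amino acid carrier were among the 15 genes that stood highest in the members, of those with at least 200 UMIs in each section. Aldh1b1, a mitochondrial aldehyde dehydrogenase, had 189.5 CPM in the members and 62.1 in the remaining spots of AEG-1-WT, and 141 and 49.1 in the AEG-1-C75S section. Its log2 ratios of 1.61 (1.51 to 1.71) and 1.52 (1.41 to 1.63) were the highest by the smaller of both sections. Eci3, an enoyl-CoA isomerase for unsaturated fatty acids, followed at 1.52 and 1.64, and Slc3a1, which helps to take up cystine and basic amino acids, was at 1.32 and 1.30. Etnppl, which degrades phosphoethanolamine, was at 1.28 and 1.08, and Sdsl, a relative of Sds, was at 1.03 and 1.18.

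Several others among the 15 code for membrane or secreted proteins. Cdh1, the epithelial cadherin, had ratios of 1.25 and 1.07, and Celsr1, a cadherin of planar polarity, had 1.14 and 1.13. Ptgds, a prostaglandin D synthase, was at 1.24 and 1.22, and Defb1, an antimicrobial peptide, was at 1.38 and 1.14. Clec2h, a lectin-like membrane protein, was at 1.52 and 1.49. Tiam2, an exchange factor for Rac, was at 1.48 and 1.66. Mmd2 (1.29 and 1.20), Gask1a (1.38 and 1.20) and the markers Sds and Hal, given above, complete the 15. Bile duct cells also carry Cdh1, and in the members outside the portal tract spots described below its ratio was 1.12 and 1.01.

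The 15 genes that stood lowest included known pericentral genes. Slc1a2, a glutamate transporter of the cells around the central vein, had 41.9 CPM in the members and 209 in the remaining spots of AEG-1-WT, and 39.9 and 178 in the AEG-1-C75S section, a log2 ratio of -2.32 (-2.48 to -2.16) and -2.16 (-2.32 to -1.99). Oat, the ornithine aminotransferase, had -2.17 and -2.03, and Fitm1, which helps to bud lipid droplets, had -2.25 and -2.20 with 59 and 53 UMIs in the members. Gulo, the last enzyme of vitamin C synthesis, was at -1.93 in both sections. Slco1a1, an uptake transporter for organic anions, had -1.83 and -2.25 with 157 and 108 UMIs in the members, and Cyp1a2, a drug-metabolising cytochrome, had -1.75 and -1.56. The ammonium channel Rhbg, at -1.99 and -1.49, rested on only 12 and 19 UMIs in the members. Vldlr (-1.93 and -2.39, with 28 and 13 UMIs in the members), Rcan2 (-1.89 and -2.37, 22 and 13 UMIs) and Slc13a3 (-2.48 and -1.77, 30 and 51 UMIs) were also among the 15. Lhpp (-1.80 and -1.82, 89 and 66 UMIs) and Nxpe2 (-1.69 and -1.97, 72 and 51 UMIs) were too, and like Rhbg, Fitm1 and Slco1a1 all of these reached the minimum of 200 UMIs through the remaining spots. Lect2 (-1.68 and -1.53), Npr2 (-1.50 and -1.66, with 175 UMIs in the AEG-1-C75S members, below the minimum) and Tbx3, described below, complete the list. Tbx3 had 38 and 36 UMIs in the members and also reached the minimum of 200 UMIs through the remaining spots. Of 8 pericentral marker genes compared beside Cyp2e1, 7 were lower in both sections, against 2.53% over all genes, and the remaining gene, Cyp2c29, had -0.35 and -0.27. The medians of those genes were -1.30 and -1.03, against -0.09 and -0.05 over all genes.

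Targets of beta-catenin, through which Wnt acts on pericentral hepatocytes, were compared as a list of 11 genes. Of these, 10 were lower in both sections, against 2.53% over all genes, and none was higher, with medians of -1.40 in the AEG-1-WT section and -1.49 in the AEG-1-C75S section against -0.09 and -0.05 over all genes. Tbx3, a transcription factor, was at -1.81 and -1.98, Axin2, which restrains the pathway, was at -1.40 and -1.74, and Notum, a secreted Wnt inhibitor, was at -1.18 and -0.96. The exception was Znrf3, a ligase that removes Wnt receptors, at -0.67 and -0.48. The R-spondin receptor gene Lgr5 had only 2 and 4 UMIs in the members, Sp5 had 6 and 5, Rhbg 12 and 19, Tcf7 18 in both sections, Tbx3 38 and 36 and Axin2 44 and 31. These genes reached the minimum of 50 UMIs through the remaining spots, so the number and the medians only describe the list.

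**Figure D2:**
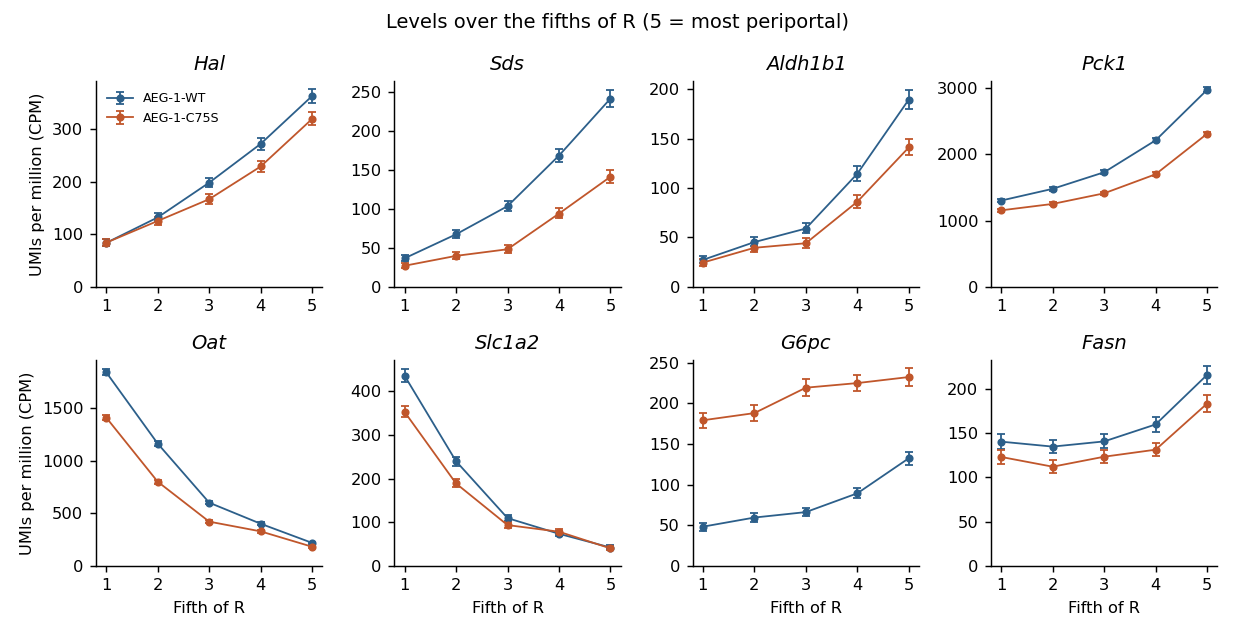
CPM of 8 genes is plotted over the 5 rank groups of R (1 most pericentral, 5 the members) for both sections, with 95% exact Poisson intervals as bars. Hal, Sds, Aldh1b1 and Pck1 climb towards the members in both sections, Oat and Slc1a2 drop, Fasn is highest in the members in both sections, and G6pc has a gradient in the AEG-1-WT section that is flatter in the AEG-1-C75S section, where it runs from 179 to 232 CPM.

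Part of the genes of amino acid breakdown were higher in the members. Of 25 genes, 10 were higher in both sections and 1 was lower, against 1.4% and 2.53% over all genes, with medians of 0.26 and 0.29. The summed level of the list was nearly flat, at a log2 ratio of 0.08 and 0.06, and in the AEG-1-C75S section it was 15355 CPM in the members and 15432 in the most pericentral rank group. Beside Hal, Sds, Sdsl, Gls2 and Etnppl, the higher genes were Uroc1 (0.59 and 0.67), Amdhd1 (0.51 and 0.62) and Ftcd (0.58 and 0.63), which continue the breakdown of histidine. Gldc of the glycine cleavage system (0.87 and 0.96) and the transaminase Got1 (0.66 and 0.71) were the others. Etnppl was counted as part of the list, although it degrades phosphoethanolamine, which is not an amino acid. All 4 histidine pathway genes, Hal included, were therefore higher. Prodh, which begins proline breakdown, was the gene that was lower, at -0.59 and -0.66. Among the enzymes of tyrosine breakdown, Hpd (-0.32 and -0.35) and Fah (-0.20 and -0.17) did not follow.

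Of the urea cycle, 1 of 8 genes passed a log2 ratio of 0.5 in both sections and none was lower, against 1.4% and 2.53% over all genes. It was Asl, which cleaves argininosuccinate, at 0.63 and 0.54. Cps1, which fixes ammonia, was at 0.23 and 0.36. Ass1 had only 83 and 77 UMIs in the members and a ratio of 0.04 and 0.09. Glucose production also had 1 of 9 genes past 0.5 in both sections, against the same 1.4%, namely Pck1, the phosphoenolpyruvate carboxykinase, at 0.82 and 0.74, while Fbp1 was at 0.55 and 0.43. G6pc, which differed most between the sections, is described below.

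Lipogenesis had 3 of 10 genes higher and none lower in both sections, against 1.4% and 2.53% over all genes. Fasn, the fatty acid synthase, was at 0.59 and 0.58, Acly, which supplies acetyl-CoA, was at 0.65 and 0.56, and Pklr, the liver pyruvate kinase, was at 0.56 and 0.65. None of 13 genes of beta-oxidation and ketogenesis passed 0.5 in both sections, Bdh1 coming nearest at -0.62 and -0.41, with medians of -0.19 and -0.07. Bile acid synthesis had 4 of 10 genes lower, against 2.53% over all genes, among them the rate-limiting Cyp7a1 at -1.47 and -1.36 and Cyp7b1 at -1.12 and -1.04. The 31 respiratory chain genes had medians of 0.07 and 0.11, and none passed 0.5 in either section.

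Among 20 secreted plasma proteins, Apoa4 was the gene that passed 0.5 in both sections, at 0.86 and 0.64, and none was lower, against 1.4% and 2.53% over all genes. Alb made up 157066 CPM of the members and 120458 of the remaining spots in the AEG-1-WT section, and 145877 and 115006 in the AEG-1-C75S section, a ratio of 0.38 and 0.34. Alb thus took a larger share of the UMIs in the members. With the 20 most abundant genes left out of the totals, 185 genes were higher in both sections and 229 lower. Of 14 acute phase genes 1, Hpx, which binds haem, was higher at 0.58 and 0.53, against the same 1.4%. The mid-lobular iron hormone Hamp was at -0.19 and -0.12. Cyp17a1, a steroid hydroxylase, was at 1.15 and 0.98 and Cyp2a4 at 0.62 and 0.56.

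**Figure D3:**
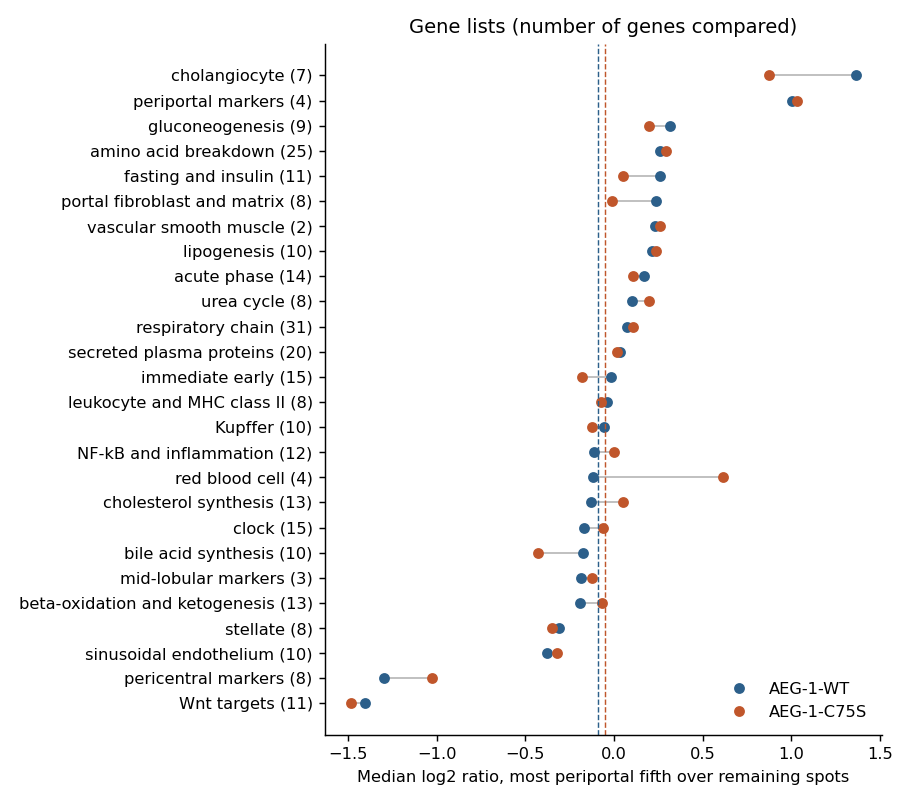
Each row is a gene list, with the number of genes compared in brackets, and the points give the median log2 ratio of members to remaining spots in each section. The dashed lines are the medians over all genes, at -0.09 and -0.05, and the red blood cell list is the one whose points lie farthest apart.

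Genes of bile duct cells were higher in the members than in the remaining spots as a whole, and were also high in the adjacent rank group. Of 7 cholangiocyte genes compared, 5 were higher in the members of both sections, against 1.4% over all genes, with medians of 1.37 in the AEG-1-WT section and 0.87 in the AEG-1-C75S section. Spp1, the most abundant of the list, had 219 CPM in the members and 82.1 in the remaining spots of AEG-1-WT, and 127 and 69.3 in the AEG-1-C75S section. Epcam was at 13.4 and 4.52 CPM, and at 8.22 and 3.63. The whole list summed to 303 CPM in the AEG-1-WT members and 179 in those of AEG-1-C75S, and no gene of it was at 0. In the adjacent rank group the sum was 250.05 and 194 CPM, so that in the AEG-1-C75S section it was above that of the members. At 3000 UMIs in each spot, a UMI of Spp1, Epcam, Krt7, Krt19 or Sox9 was seen in 33.6% of the AEG-1-WT members (29.3 to 38.1%) and 17.2% of the remaining spots, while AEG-1-C75S had 29.4% of members (25.1 to 33.9%) and 17.8% of remaining spots. Without thinning the shares were 71.0%, 54.4%, 64.9% and 56.7%, and in the adjacent rank group they were 63.4% in the AEG-1-WT section and 69.7% in the AEG-1-C75S section, or 27.5% and 25.9% after thinning. Of 8 genes of portal fibroblasts and matrix 2, Mgp (0.71 and 0.70) and Gsn (1.05 and 0.75), were higher in both sections, against the same 1.4%, and the list's medians were 0.24 and -0.01. The sum of that list was lower in the members than in the adjacent rank group, at 271 against 330 CPM in the AEG-1-WT section and 111 against 141 in the AEG-1-C75S section.

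The 10% of spots in a section with the highest share of cholangiocyte, portal fibroblast and smooth muscle genes were set apart. They held 22.5% of the AEG-1-WT members (104 spots) and 6.88% of the remaining spots, and 17.6% (76 spots) and 8.15% in the AEG-1-C75S section. In the adjacent rank group they were 16.9% of the spots (78 spots) in the AEG-1-WT section and 16.4% (71 spots) in the AEG-1-C75S section. The AEG-1-C75S share was thus close to that of the members. In the members that were not among them, Hal was at a ratio of 1.08 in both sections and Sds at 1.35 and 1.44, while Spp1, which took part in the choice, was at -0.40 and -0.38. When these spots were left out before ranking, 100 genes were higher in the members of both sections and 296 were lower. The number of higher genes was smaller without portal tract spots. Since genes of the portal tract chose those spots, this follows in part from the choice. Hal and Sds were as high in the members outside them.

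Some genes of sinusoidal cells were lower in the members. Of 10 genes of sinusoidal endothelium, 1, Lyve1 with 12 and 8 UMIs in the members, was past -0.5 in both sections, against 2.53% over all genes. Lyve1 reached the minimum through the remaining spots. The medians of the list were -0.38 and -0.32 against -0.09 and -0.05 over all genes. Stab2, a scavenger receptor of these cells, was at -0.55 and -0.42, and Oit3 at -0.58 and -0.42. Of 8 stellate cell genes, 2 were lower, against the same 2.53%, Reln at -0.59 in both sections and Ecm1 at -0.50 and -0.52. In these summed spots, fewer cells of a type and less RNA in each cell cannot be told apart. None of the 10 Kupffer cell genes passed 0.5 in both sections, and their medians were -0.06 and -0.12.

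Within the members the gradient went on. The members were split into 4 rank groups of R, of 115 or 116 spots in the AEG-1-WT section and 108 or 109 in the AEG-1-C75S section. The highest group had a median R of 0.90 in the AEG-1-WT section and 1.88 in the AEG-1-C75S section, so that the AEG-1-C75S section reached further along the scale. Oat went from 300.2 CPM in the lowest group to 139 in the highest in the AEG-1-WT section and from 269.8 to 62.5 in the AEG-1-C75S section. Sds went from 214 to 279 and from 113 to 194, and Aldh1b1 from 165 to 228 and from 100.3 to 216.

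Fasn showed its largest step at the very end in the AEG-1-C75S section, with 149, 159, 159.7 and 266 CPM in the 4 groups, and it had 182, 202.5, 208 and 269.8 in the AEG-1-WT section. Cd5l and Ecm1 were lowest in the highest group of both sections. The Kupffer cell gene Cd5l went from 468 to 309 CPM in the AEG-1-WT section and from 527 to 390.0 in the AEG-1-C75S section, and Ecm1 from 239 to 166 and from 323 to 198. Spp1 behaved differently in the sections: it had 217, 266, 277 and 124 CPM in the AEG-1-WT section, whereas in the AEG-1-C75S section the 4 values lay between 117 and 141. The highest rank group in the AEG-1-WT section was thus the one with the least Spp1.

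**Figure D4:**
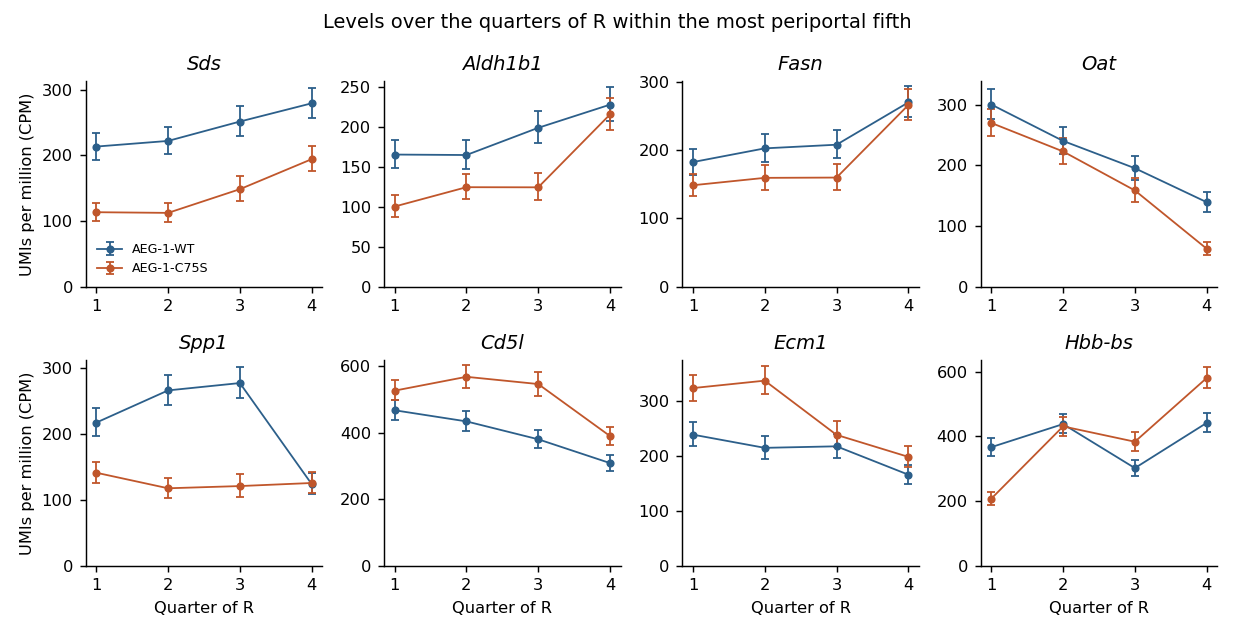
CPM of 8 genes is plotted over the 4 rank groups of R within the members (4 highest) for both sections, with 95% exact Poisson intervals as bars. Sds, Aldh1b1 and Fasn are highest and Oat, Cd5l and Ecm1 lowest in group 4 of both sections, while Spp1 drops to 124 CPM in group 4 of AEG-1-WT.

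Some genes varied strongly between member spots. For each gene the squared coefficient of variation over the member spots was taken beyond counting error, for 1750 genes with at least 500 UMIs in the members of each section. It passed 0.1 in both sections for 41 genes. By the smaller of both sections Spp1 stood first, at 3.64 and 3.16, before Hba-a2 at 4.50 and 2.72 and Hbb-bs at 4.33 and 2.50, the chains of haemoglobin. The MHC class II genes H2-Ab1 (2.72 and 1.40), H2-Aa (1.86 and 1.26) and Cd74 (1.49 and 1.13) came next. The 10 spots with the most UMIs of Spp1 held 25.4% of its UMIs in the AEG-1-WT members and 27.5% in those of AEG-1-C75S, and for Hal the shares were 6.12% and 6.97%. The other genes among the 12 highest were Bgn of the extracellular matrix, the interferon-responsive Rnf213, the Kupffer cell genes Clec4f and Cd5l, Serpina1e and Tmsb4x, and all of them were at 0.22 or more in both sections. Markers of duct, blood and antigen-presenting cells thus varied most from spot to spot. Of the hepatocyte genes named above, Fasn (0.15 and 0.13), Aldh1b1 (0.13 and 0.21), Oat (0.13 and 0.27) and Cyp1a2 (0.11 and 0.14) also passed 0.1. Without portal tract spots the smaller value of Spp1 was 0.77.

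AEG-1-C75S was then compared with AEG-1-WT within the members. Mtdh itself had 565 and 577 UMIs there, 71.0 CPM in the AEG-1-WT section and 71.9 in the AEG-1-C75S section, and its log2 ratio was 0.02 (-0.15 to 0.19). Whether a probe of Mtdh covers the changed codon is not given in the sources used here. Of 9929 genes with at least 50 UMIs, 446 (4.49%) were higher in the AEG-1-C75S members by at least 0.5 and 628 (6.32%) were lower. Here too a gene could reach the minimum through the section in which it was high. In the remaining spots of the same sections, 383 of 11766 genes (3.26%) were higher and 800 (6.8%) were lower. The median over all genes was -0.01 in the members and -0.06 in the remaining spots. Without the portal tract spots the members had 546 genes higher and 512 lower.

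Among genes with at least 500 UMIs over the members of both sections, the largest ratio was that of Igfbp1. The gene codes for a binding protein of insulin-like growth factors and is known to be repressed by insulin. It went from 33.4 CPM in the AEG-1-WT members to 245 in those of AEG-1-C75S, a ratio of 2.88 (2.69 to 3.07). Its relative Igfbp2 went from 1061 to 2401 CPM, a ratio of 1.18. Marco, a scavenger receptor of Kupffer cells, was at 36.8 and 112 CPM, a ratio of 1.60 (1.41 to 1.80), and 1.62 in the remaining spots. It stood out from the 10 Kupffer cell genes compared, of which 2 were higher, against 4.49% over all genes, and none lower, with a median of 0.31 in the members and 0.44 in the remaining spots: in the members Adgre1 was at 0.64, Timd4 at 0.49, C1qb at 0.37, Cd5l at 0.35 and Clec4f at 0.04. Scd1, a fatty acid desaturase, had 678 and 1489 CPM and Egfr, the epidermal growth factor receptor, 146 and 296. The tubulin genes Tubb2a and Tubb4b had ratios of 1.34 and 0.98, and Clpx, a mitochondrial protease subunit, had 1.38. The other genes among the 15 highest were Egr1 and Jun, described below, Depp1 (1.30), the acute phase gene Orm2 (1.08), Rab30 (0.98), Cldn2 (0.97) and Rgs16 (0.97).

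Serpina1e, 1 of several near-identical antitrypsin genes, had the lowest ratio among those genes, at 1639 CPM in the AEG-1-WT members and 140.2 in those of AEG-1-C75S, a ratio of -3.55 (-3.64 to -3.46). Probes of such copies can share transcripts, so its value is uncertain. Thrsp, a lipogenic factor of fed liver, had 176 and 53.7 CPM, a ratio of -1.71, and the metallothioneins Mt2 and Mt1 had -1.53 and -1.31. Cyp7a1, already low in the members, had 75.7 CPM in the AEG-1-WT section and 29.8 in the AEG-1-C75S section, a ratio of -1.35. Prodh was at -1.46, Tat, which begins tyrosine breakdown, at -1.06 and Nnmt, a nicotinamide methyltransferase, at -1.06. The other genes among the 15 lowest were Dbp, described below, A1bg (-1.52), Upp2 (-1.45), Cyp2b13 (-1.30), Tk1 (-1.26), Tef (-1.23) and Afmid (-1.12).

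Several periportal enzymes were lower in the AEG-1-C75S members, and by about as much outside them. Sds had 242 CPM in the AEG-1-WT section and 141 in the AEG-1-C75S section, a ratio of -0.77 (-0.88 to -0.67), and -0.85 in the remaining spots. Gls2 was at -0.60 in the members and -0.70 outside, and Asl at -0.73 and -0.64. Hsd17b13 was nearly level, at -0.04 and -0.05. Of the 25 genes of amino acid breakdown, 8 were lower in the AEG-1-C75S members and none was higher, against 6.32% and 4.49% over all genes. In the remaining spots 7 were lower, against 6.8% over all genes. The median of the list was -0.35 in the members and -0.27 in the remaining spots. Of the 4 periportal markers, 2 were lower. Tiam2, 1 of the genes that lead the members, was at -1.36, whereas Defb1 and Ptgds were higher, at 1.20 and 0.93.

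Of 12 genes of fasting and insulin response, 8 had more UMIs in the AEG-1-C75S members past 0.5 and 1, Tat, had fewer, with a median of 0.79 in the members and 0.74 in the remaining spots. Over all genes 4.49% were higher and 6.32% lower in the members. Beside Igfbp1 and G6pc these were Irs2, the insulin receptor substrate, at 0.63, Lpin1 at 0.84, Angptl4, an inhibitor of lipoprotein lipase, at 0.77, Lepr, the leptin receptor, at 1.41, and Pdk4 and Fgf21, which rested on 22 and 6 UMIs in the AEG-1-WT section. Pck1, the most abundant gene of the list, was at -0.36. Clock and immediate early genes differed as well. Of 14 clock genes 2 were higher and 8 lower, with Arntl at 2.02, Dbp at -1.41, Per2 at -1.87 and Usp2 at -3.13. In the remaining spots 1 was higher and 8 were lower, against 3.26% and 6.8% over all genes there. The medians of the clock genes were -0.72 in the members and -0.61 outside. Of 15 immediate early genes 11 were higher, with Egr1 at 1.40 and Jun at 1.18. In the remaining spots 11 were higher as well, against the same 3.26%. The median of the 15 genes was 0.87 in the members and 1.33 outside. Of these genes Fos had 17 and 114 UMIs in the members and Atf3 23 and 80, and of the clock genes Arntl had 31 and 127 and Usp2 355 and 41, so these reached the minimum mainly through 1 section. With 1 animal each, the time of day and the last meal cannot be told apart from the genotype.

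G6pc, the catalytic subunit of the enzyme that releases free glucose, had the most negative difference between members and remaining spots among genes with at least 500 UMIs. In AEG-1-WT it had 48.2, 59.4, 66.1, 89.3 and 132 CPM from the most pericentral rank group to the members, and in the AEG-1-C75S section 179, 188, 219, 225 and 232. It was higher in the AEG-1-C75S section in every rank group, by a log2 ratio of 0.81 in the members (0.70 to 0.92) and 1.62 in the remaining spots (1.55 to 1.69). The difference of those ratios was -0.81 (-0.94 to -0.68). The ratio of members to remaining spots was 1.003 in the AEG-1-WT section and 0.20 in the AEG-1-C75S section, so the periportal excess was smaller in the AEG-1-C75S section. Pck1, the other regulated gene of glucose production, had a ratio of 0.82 and 0.74. Without the portal tract spots the difference for G6pc was -0.81, and ranked by a second index of Hal, Gls2, Hsd17b13 and Sds over Cyp1a2 and Oat it was -0.76.

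G6pc and Igfbp1 are both known to be repressed by insulin, and their promoters are shown because both genes were higher in the AEG-1-C75S members. Both belong to the list of 12 fasting and insulin genes given above, of which 8 were higher there and Tat was lower. Pck1 of that list was also below its AEG-1-WT level. The promoters of the other listed genes are not shown, and insulin was not tested as a cause. The 250 bases before the start of each gene were read from RefSeq on GRCm38.p6, which has the chromosome sequences of the mm10 build of the count tables. G6pc lies on the plus strand at chr11:101367466-101367715 and Igfbp1 on the plus strand at chr11:7197537-7197786, and both windows lie upstream of the first exon. The capitals mark every match of AAAACA or its reverse complement TGTTTT, searched on both strands with overlaps allowed. These letters are at the core of known insulin response elements.
G6pc: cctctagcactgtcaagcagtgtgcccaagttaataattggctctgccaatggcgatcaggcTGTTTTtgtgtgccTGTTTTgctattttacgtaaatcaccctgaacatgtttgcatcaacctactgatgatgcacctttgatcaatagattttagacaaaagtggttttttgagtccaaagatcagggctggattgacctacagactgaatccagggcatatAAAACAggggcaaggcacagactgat
Igfbp1: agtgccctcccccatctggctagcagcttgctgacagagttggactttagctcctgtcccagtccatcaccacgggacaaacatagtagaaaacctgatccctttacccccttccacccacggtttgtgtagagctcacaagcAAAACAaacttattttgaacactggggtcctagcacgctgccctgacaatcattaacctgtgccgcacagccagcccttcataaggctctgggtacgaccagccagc
G6pc holds 3 matches, which begin 188, 174 and 26 bases before the start, and Igfbp1 holds 1, which begins 107 bases before it. Of 32851 RefSeq promoters of that length, 6518 (19.8%) hold at least 1 match. A match shows letters in a window and does not show that a factor binds there. Whether each match lies in a known insulin response element was not checked.

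Across all genes, 294 of 9929 (2.96%) had a log2 ratio of AEG-1-C75S to AEG-1-WT that was higher in the members than in the remaining spots by at least 0.5, and 226 (2.28%) had one lower by as much. After centring on the median gene the numbers were 224 and 300, and with the highest 30% of R as members they were 249 and 276. Which side is larger thus depends on the scaling and on the share of spots. Most of these genes had few UMIs, and with at least 200 UMIs the numbers were 33 and 18. Among the highest with 500 UMIs or more were Mvk of sterol synthesis (0.50) and Cldn2, a tight junction protein that is pericentral in these sections (0.46), with Kdm1b (0.47), a histone demethylase, and Tubb4b (0.46) between them. Cldn2 was at a ratio of -1.43 of members to remaining spots in the AEG-1-WT section and -0.97 in the AEG-1-C75S section. Among the lowest were Car14, a membrane carbonic anhydrase (-0.41), and Fmo2, a monooxygenase (-0.35), with Arhgap21 (-0.39), Pcolce (-0.36) and Itga1 (-0.35).

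Genes of the portal tract were lower in the AEG-1-C75S members. Of 7 cholangiocyte genes 5 were lower there, against 6.32% over all genes, with a median of -0.79. In the remaining spots 2 were lower, against 6.8% over all genes, with a median of -0.32. Spp1 was at a log2 ratio of AEG-1-C75S to AEG-1-WT of -0.79 in the members and -0.24 in the remaining spots, a difference of -0.54 (-0.68 to -0.41). Col3a1, a fibrillar collagen, was at -1.03 and -0.59, a difference of -0.43. Of 9 genes of portal fibroblasts and matrix, all 9 were lower in the AEG-1-C75S members, against 6.32% over all genes, with a median of -1.46, and 8 were lower in the remaining spots, against 6.8%. Among them Clec3b had 48 and 3 UMIs in the members and so reached the minimum mainly through the AEG-1-WT section. All 4 smooth muscle genes compared were lower as well, with Acta2 at 80 UMIs in the AEG-1-WT members and 13 in those of AEG-1-C75S, and Cnn1 at 8 and 0 UMIs, where a count of 0 allows up to 3. In the remaining spots all 4 were lower too, against 6.8% over all genes. Their median was -1.52 in the members and -1.75 outside. A difference of at least 0.5 was seen in 2 of the 4, against 2.96% over all genes. It rests on few UMIs, since Myh11 had 47 and 15 in the members and Myl9 49 and 19. These are genes of vessel walls and portal stroma, and the part of the sampled tissue in these ratios was not tested. Without the portal tract spots the difference for Spp1 was -0.23 and for Col3a1 it was 0.02, but both genes took part in choosing those spots, so smaller differences follow in part from the choice.

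Among genes with at least 500 UMIs, haemoglobin transcripts had the most positive differences. Hba-a2 had 171 CPM in the members and 191 in the remaining spots of AEG-1-WT, and 187 and 107 in the AEG-1-C75S section. The ratio of members to remaining spots was therefore -0.16 (-0.24 to -0.08) in the AEG-1-WT section and 0.80 (0.71 to 0.89) in the AEG-1-C75S section. Hbb-bs had 388 and 409.9 CPM in the AEG-1-WT section, and 395 and 238 in the AEG-1-C75S section, a ratio of -0.08 and 0.73. Summed over all members the levels were thus close in the sections, but this sum joins differences in opposite directions. In portal tract members Hbb-bs was at 426 CPM in the AEG-1-WT section and 926 in the AEG-1-C75S section, and in the other members at 377 and 307. Hba-a2 was at 208 and 424 CPM in portal tract members and at 160 and 147 in the others. Of 4 red cell genes, 3 had a difference of at least 0.5, against 2.96% over all genes, and the haem synthesis gene Alas2 had 0.43. Over the remaining spots, the ratio of Hbb-bs was 0.06 in the portal tract members and -0.12 in the other members of AEG-1-WT, and 1.96 and 0.37 in the AEG-1-C75S section. Without the portal tract spots the differences of Hba-a2 and Hbb-bs were 0.50 and 0.30.

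**Figure D5:**
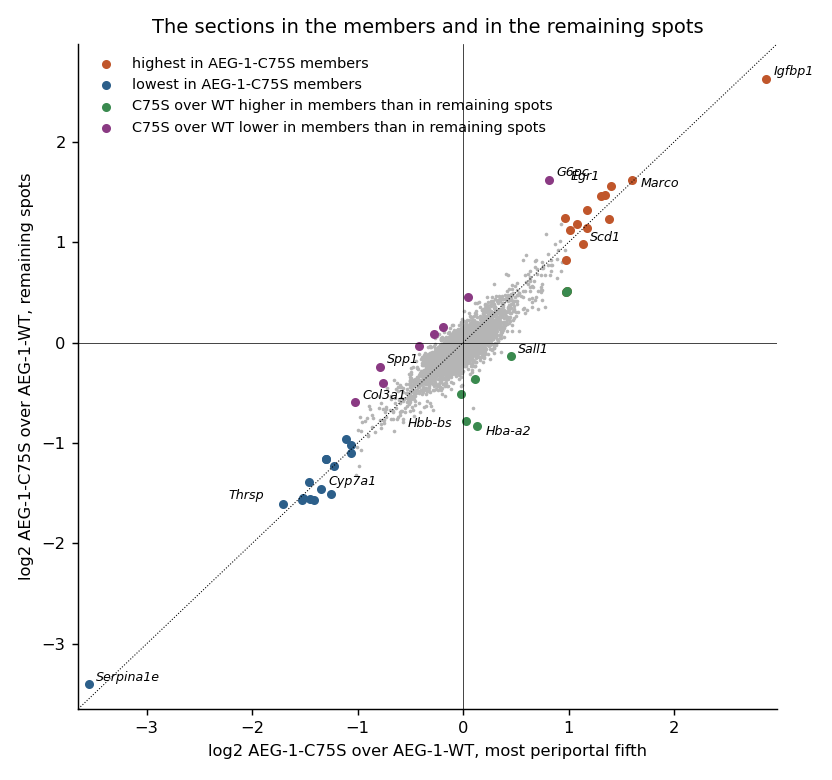
Each point is a gene with at least 500 UMIs over the members of both sections, with the log2 ratio of AEG-1-C75S to AEG-1-WT in the most periportal spots on the horizontal axis and in the remaining spots on the vertical axis, and the dotted line marks equal ratios. Most genes lie near the line, Igfbp1 and Serpina1e at its ends, while G6pc lies above it (0.81 against 1.62) and Hba-a2 and Hbb-bs lie below it.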

How the data were processed

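The authors made the deposited counts with Space Ranger 2.0.1 on mm10 (Seurat 4.3.0 is also listed), and they are not normalized: each cell gives the UMIs of 1 of 19465 genes in 1 spot under tissue. For 11 repeated gene symbols the first entry was used, and 0 columns of other samples were present. Here, spots above 50000 UMIs were left out, UMIs were summed over spots, and sums were divided by their total. Log2 ratios carry 95% exact binomial intervals, levels exact Poisson intervals, and differences of ratios intervals from 4 Poisson sums. Depth limits genes of few UMIs, so a gene needed 50 UMIs in the sums compared. Genes were named by rank: the 15 highest and 15 lowest of the members (200 UMIs or more in each section), the 15 highest and 15 lowest between the genotypes (500 or more over both sections' members), 8 each way for the difference, 12 for the spread, the periportal markers, Mtdh, and examples from 27 gene lists. The members, lists and tests were chosen with earlier results of these data known. Spot coordinates were not used. Python 3.11.15, numpy 2.4.6, scipy 1.17.1 and pandas 2.3.3 were used, and edgeR 4.0.16 in R 4.3.3 for TMM factors, an alternative. The computations were tested on simulated data. The other alternatives were other shares of spots, no spot filter, another pseudocount, thinning, a second index, no portal tract spots, equal weight of spots, other scalings, other minimums, matching on total UMIs and the adjacent spots as reference. Of the listed genes, 15 were not analysed here, and some genes that the rules name are not reported here.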

Additional observations from a re-analysis of the deposited data

Results flagged for a closer look

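Of 3557 genes with at least 500 UMIs in the members, 31 had intervals of the ratio of AEG-1-C75S to AEG-1-WT in the members and in the remaining spots, or of members to remaining spots in both sections, that lay on opposite sides of 0, and 3 of these differed by at least 0.5. Hba-a2 differed by 0.96, with a ratio of members to remaining spots of -0.16 in the AEG-1-WT section and 0.80 in the AEG-1-C75S section. Hbb-bs differed by 0.809, with -0.08 and 0.73. In the members, 29.2% of the Hbb-bs UMIs of AEG-1-WT and 21.8% of those of AEG-1-C75S lay in the 10 spots that held the most.

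Sall1, a zinc finger transcription factor, differed by 0.591. It had 28.5 CPM in the members and 32.4 in the remaining spots of AEG-1-WT, and 39.1 and 29.5 in the AEG-1-C75S section. With 1 section of each genotype none of these differences was tested, and blood content and portal tract spots were not tested as a cause.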

How the results depend on the processing

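Each section is 1 animal, so no replicate could be left out, and no test was made. No paired analysis was possible because each genotype has 1 section. Numbers of genes past 0.5 moved by over 1.5 times in these cases. With the highest 10% of R, 445 genes were lower in the members. Without portal tract spots, 100 were higher. With a minimum of 10 UMIs, 323 were higher and 442 lower in the members, 820 and 1260 were higher and lower in AEG-1-C75S, and 785 and 731 differed upwards and downwards between members and remaining spots. With a minimum of 200 UMIs these were 80 and 159, 175 and 230, and 33 and 18. With spots matched on total UMIs, 478 genes differed upwards, and against the adjacent rank group 564 did, while 20 were higher and 68 lower. The spread passed 0.1 for 187 of 4050 genes at 200 UMIs. The depth behind these genes limits such numbers.

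The split between directions moved with the scaling, and for the difference also with the share of spots. Between the genotypes it changed sides without portal tract spots. There 546 genes were higher and 512 lower in the AEG-1-C75S members, against 446 and 628. Against 155 higher and 280 lower genes, centring gave 187 and 221, TMM 182 and 228, and totals without the 20 most abundant genes 185 and 229. For the difference, against 294 and 226, these gave 224 and 300, 229 and 292, and 261 and 261. The highest 30% of R gave 249 and 276. Over all alternatives, 201 of 1698 values of single genes moved beyond their counting interval (for the spread, by over 1.5 times), and 147 of 1188 list medians moved by over 0.1. The difference of G6pc ranged from -0.85 to -0.70. Without portal tract spots the differences of Hba-a2, Hbb-bs and Sall1 were 0.50, 0.30 and 0.42.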

Other observations

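Cholesterol synthesis had none of 13 genes past 0.5 between members and remaining spots in both sections. As AEG-1-C75S over AEG-1-WT, 1 of 12 genes was lower in the members and none was higher, against 6.32% and 4.49% over all genes, with a median of -0.18. In the remaining spots 4 were lower and none was higher, against 6.8% and 3.26%, with a median of -0.35. Hmgcs1 and Cyp51 went the other way, at 0.36 and 0.43 in the members and at 0.08 and 0.23 in the remaining spots. Mvd had 0.47 as the difference between members and remaining spots. Of 12 genes of NF-kB and inflammation that could be compared, 2 were higher in the AEG-1-C75S members, Cxcl10 at 0.54 (0.03 to 1.05) and Socs3 at 0.55 (0.15 to 0.95), against 4.49% over all genes. Cxcl10 rested on 56 and 82 UMIs, of which 16 and 31 lay in 10 spots, and Socs3 on 91 and 134. The median of the list was 0.14 in the members and 0.00 in the remaining spots.

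Nr0b2, a repressor of bile acid synthesis, was at 41.9 CPM in the AEG-1-WT members and 72.0 in those of AEG-1-C75S, a ratio of 0.78 (0.59 to 0.98), and at 1.09 in the remaining spots. Cyp8b1, which sets the share of cholic acid, had 32 and 30 UMIs in the members and a ratio of -0.11 there, against 0.91 in the remaining spots.

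Lists of genes of changing state were also compared between members and remaining spots, where 1.4% of all genes were higher and 2.53% lower in both sections. None of 15 clock genes passed 0.5 in both sections, 1 of 15 immediate early genes, Fos at -0.97 and -1.40 with 17 and 114 UMIs in the members, was lower, and 1 of 12 NF-kB genes, Socs3 at -0.52 and -0.60, was lower. Of 11 fasting and insulin genes, Pck1 and Lpin1 (0.51 and 0.59) were higher and Pdk4 (-0.76 and -0.56, with 22 and 78 UMIs in the members) was lower, with medians of 0.26 and 0.05 against -0.09 and -0.05 over all genes. The sum of that list, in which Pck1 was the most abundant gene, was at 0.57 and 0.42. Of 8 leukocyte and MHC class II genes 1, the B cell gene Cd79a at -0.83 and -0.57 with 31 and 45 UMIs in the members, was lower, with medians of -0.04 and -0.08. In the AEG-1-WT section Fos, Pdk4 and Cd79a reached the minimum of 50 UMIs through the remaining spots, as did Cd79a in the AEG-1-C75S section.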
